A study of Mus musculus with 10 samples.

Results

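The genes described here are the neurotrophins and receptors Bdnf, Ntf3, Ntrk2, Ntrk3, Ngfr and Sort1, chosen by name from knowledge of the pathway, and each was found by its Ensembl identifier. They are 6 of the 55536 genes counted in mouse cortical libraries from TRAP, or translating ribosome affinity purification, in which ribosomes that carry a tag are pulled down together with the mRNA they hold. The libraries came from 3 mouse lines in which Cre recombinase is driven from the gene of 1 subunit of the interleukin-17 receptor, namely 3 libraries from Il17rb-Cre mice, 3 from Il17ra-Cre mice and 4 from Il17rc-Cre mice. Every mouse had received AAV5-EF1α-Flex-EGFPL10a, a virus in which the EF1α promoter expresses the ribosomal protein L10a fused to green fluorescent protein once Cre has turned the insert round. The virus was given at 400 nl per side into the part of the primary somatosensory cortex labelled S1DZ, and tissue was taken 4 weeks later. A pull-down is therefore meant to read cells near the injection that took up the virus, carried Cre and used the EF1α promoter. No input library and no library from mice without Cre is among the samples, so RNA bound without the tag cannot be told apart. Ages, sexes and strain backgrounds are not stated in the labels. Whether the libraries of a group came from separate animals is not stated, so p-values reflect only how much these samples vary, which may be technical.

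Neurotrophins are secreted growth factors that keep neurons alive and adjust their synapses. Bdnf encodes brain-derived neurotrophic factor, whose receptor is the tyrosine kinase TrkB from Ntrk2, and Ntf3 encodes neurotrophin-3, whose main receptor is TrkC from Ntrk3. Ngfr encodes p75, a receptor that binds every neurotrophin, and Sort1 encodes sortilin, which pairs with p75 in binding uncleaved proneurotrophins and also sorts these proteins inside the cell. In cortex Bdnf is known as a product of excitatory neurons whose transcription follows neuronal activity. Neurons make the full-length TrkB kinase, and astrocytes make mostly a truncated TrkB without the kinase domain.

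Of the 6 genes, Ntrk2, the gene of TrkB, had the smallest p-value in each comparison, while Ngfr, read at few counts, had larger fold changes in both comparisons with Il17rb-Cre. Ntrk2 mRNA was lowest in every library labelled Il17rb-Cre and highest in every library labelled Il17rc-Cre. Bdnf, Ntrk3 and Sort1 were higher in Il17rb-Cre than in Il17rc-Cre, and Ngfr was close to 0 in Il17rb-Cre. Of the 6 genes, 1 was higher and 2 were lower in Il17rb-Cre than in Il17ra-Cre at an adjusted p under 0.05 from the quasi-likelihood test of edgeR, in which 40.7% of the 20301 genes tested passed, 16.4% higher and 24.4% lower. Against Il17rc-Cre, 3 were higher and 2 lower in Il17rb-Cre, where 39.7% of all genes passed, 17.7% higher and 21.9% lower. Between Il17ra-Cre and Il17rc-Cre only Ntrk2 passed, as lower in Il17ra-Cre, where 2.18% of all genes passed, 1.38% higher and 0.798% lower. In both comparisons with Il17rb-Cre a call is thus common in the whole table. The 3 of 6 genes called against Il17ra-Cre lie near that background, and 5 of 6 were called against Il17rc-Cre, which was 3 without any 1 of the Il17rb-Cre replicates. All 6 genes passed the filter on low counts.

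Total counts ran between 39692925 and 165844244 per library, and the deepest was Il17ra-Cre replicate 3. That library stood apart from the other 2 of its group, as markers of excitatory neurons summed to 6769 CPM in replicate 3 against 1594 and 1845 CPM in replicates 1 and 2, and markers of oligodendrocytes to 5314 CPM against 44453 and 30383 CPM. CPM are counts per 1000000 counts of a library, scaled by TMM. Rpl10a, the mouse gene of the tagged protein, was at 679 CPM in replicate 3 against 58.7 and 70.9 CPM in replicates 1 and 2. It ran from 602 to 670 CPM in Il17rb-Cre and from 191 to 267 CPM in Il17rc-Cre, so replicates 1 and 2 were the lowest of all libraries. Each result is therefore also given without Il17ra-Cre replicate 3 where that changes it. None of the 3 driver genes was highest in the group that bears its name. Il17rb averaged 0.714 ± 0.138 CPM where the label was Il17rb-Cre (SD, n = 3), below 2.26 ± 1.31 CPM in Il17ra-Cre (n = 3) and 1.27 ± 1.13 CPM in Il17rc-Cre (n = 4). Il17ra averaged 26.5 ± 7.31 CPM in Il17rb-Cre, 18.5 ± 2.53 CPM in Il17ra-Cre and 18.8 ± 2.97 CPM in Il17rc-Cre. Il17rc averaged 1.89 ± 1.15 CPM in Il17rb-Cre, 29.4 ± 10.4 CPM in Il17ra-Cre and 28.3 ± 8.37 CPM in Il17rc-Cre. All directions below rest on the labels as deposited.

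Before the values, 2 promoters are shown, picked after Bdnf and Ntrk2 were seen to run in opposite directions between the drivers. Bdnf is known to be switched on through short elements upstream of its starts. Whether such elements have a part in these directions was not tested. RefSeq (GRCm38.p6) gave promoter windows for 4 of the 6 genes, with 7 starts for Bdnf, 2 for Ntf3 and 1 each for Ntrk2 and Ngfr. In the 250 bases before each start, both strands were searched for TGACGT, the core of the element bound by the activity-dependent factor CREB, and for CACGTG, the E-box bound by USF factors. The 2 motifs share the letters ACGT but neither contains the other. The CREB core lay in 1 of the 7 Bdnf windows, that of start 3 at chr2:109692186-109692435 (plus strand), and began 36 bases before the start. It lay in 6.47% of 32851 windows of the same length, and the E-box, found in 1 Ntf3 window, lay in 6.02%. The window before the Ntrk2 start, at chr13:58806319-58806568 (plus strand), held neither set of letters. In the sequences below, 5′ to 3′, capitals mark the CREB core as read on the opposite strand.
Bdnf start 3: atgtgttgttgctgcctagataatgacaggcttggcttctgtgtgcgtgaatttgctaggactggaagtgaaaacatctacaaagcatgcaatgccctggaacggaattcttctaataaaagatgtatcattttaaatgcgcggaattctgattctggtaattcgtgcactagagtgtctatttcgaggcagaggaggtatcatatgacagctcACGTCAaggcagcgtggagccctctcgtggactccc
Ntrk2 start 1: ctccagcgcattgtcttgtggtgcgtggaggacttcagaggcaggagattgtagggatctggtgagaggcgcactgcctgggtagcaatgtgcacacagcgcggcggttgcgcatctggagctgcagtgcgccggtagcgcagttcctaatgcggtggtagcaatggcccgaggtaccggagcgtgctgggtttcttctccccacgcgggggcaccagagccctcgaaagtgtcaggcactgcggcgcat
Counts per gene add all starts together, so use of start 3 could not be told apart from use of the other Bdnf starts.

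Levels of different genes were compared as CPM per kilobase of exon. In Il17rb-Cre the order was Sort1 at 16.2 ± 2.62, Bdnf at 10.8 ± 1.37, Ntrk2 at 5.14 ± 0.609, Ntrk3 at 0.805 ± 0.0338, Ntf3 at 0.145 ± 0.171 and Ngfr at 0.0106 ± 0.00920 CPM per kb (SD, n = 3). Per kb, the ligand Bdnf stood above its receptor there, and only the neighbours Ntf3 and Ngfr overlapped between libraries. In CPM not divided by length, Ntrk2 stood above Bdnf in Il17rb-Cre, at a mean of 99.1 against 67.0 CPM. In Il17ra-Cre Ntrk2 came first at 16.4 ± 1.41, followed by Sort1 at 13.9 ± 5.36, Bdnf at 5.19 ± 3.57, Ntrk3 at 0.541 ± 0.0698, Ntf3 at 0.354 ± 0.372 and Ngfr at 0.261 ± 0.123 CPM per kb (n = 3). In that group only Bdnf and Ntrk3 were neighbours without overlap. In Il17rc-Cre Ntrk2 led at 28.7 ± 3.53, followed by Sort1 at 9.75 ± 1.38, Bdnf at 3.15 ± 0.578, Ntrk3 at 0.536 ± 0.0625, Ngfr at 0.181 ± 0.116 and Ntf3 at 0.0951 ± 0.118 CPM per kb (n = 4). Here again only the last pair, Ngfr and Ntf3, overlapped. Dividing by the longest coding transcript in place of all exons left the order the same in every group.

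**Figure D1:**
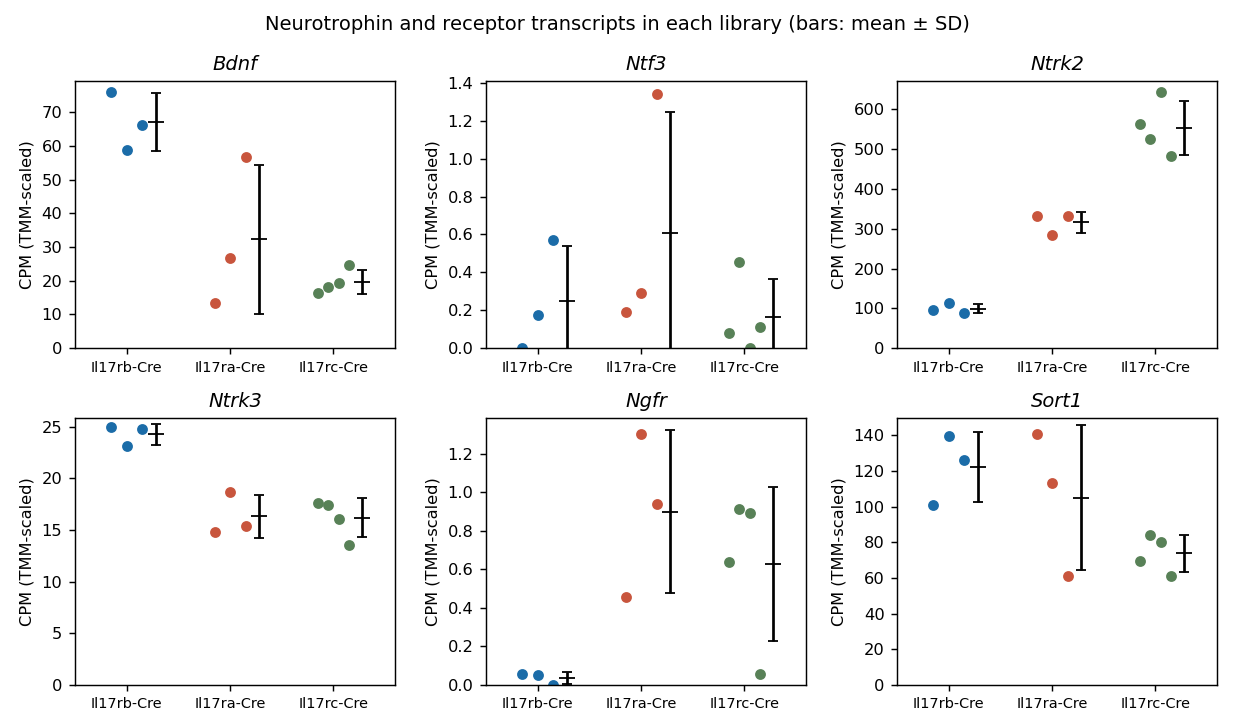
CPM (TMM-scaled, linear axes from 0) of each gene in each library, with 1 point per library and a bar for the mean ± SD of the group, cut at 0 where the SD runs below it. Ntrk2 separates all 3 groups, Bdnf in Il17ra-Cre spans 13.5 to 56.7 CPM, and Ntf3 and Ngfr stay below 1.5 CPM in every library.

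Bdnf (ENSMUSG00000048482, chromosome 2, 109674700 to 109727007, plus strand, GRCm38) was the more abundant ligand. Libraries of Il17rb-Cre held 76.0, 58.9 and 66.3 CPM of it, those of Il17ra-Cre 13.5, 26.7 and 56.7 CPM and those of Il17rc-Cre 16.3, 18.0, 19.4 and 24.6 CPM. Every Il17rb-Cre library lay above every other library, but Il17ra-Cre replicate 3 came within a few CPM of the lowest of them. Against Il17rc-Cre the level in Il17rb-Cre was 3.42-fold higher (log2 1.77 ± 0.39, SE, edgeR adjusted p = 0.00482), and it passed with each of the 10 libraries left out in turn. Against Il17ra-Cre the log2 fold change of 1.05 ± 0.42 did not pass (edgeR adjusted p = 0.0672). Without Il17ra-Cre replicate 3 it was 1.74 and passed (edgeR adjusted p = 0.00134), and with that library as the only one of its group it was 0.25 (edgeR adjusted p = 0.553). In Il17ra-Cre against Il17rc-Cre the log2 fold change was 0.72 ± 0.38 (edgeR adjusted p = 0.358), and leaving out Il17ra-Cre replicate 3 gave 0.034. The lack of overlap between Il17rb-Cre and each other group is shared by 53.8% of all genes against Il17ra-Cre and by 53% against Il17rc-Cre. Excitatory neuron markers summed to between 17947 and 20955 CPM in Il17rb-Cre, to between 1594 and 6769 CPM in Il17ra-Cre and to between 2262 and 3630 CPM in Il17rc-Cre, and their part in the Bdnf result was not tested. In such pooled RNA, fewer cells of a type, less RNA per cell and RNA bound without the tag cannot be told apart. Of the exonic length of Bdnf, 14.4% overlaps the gene Gm45346, and without strand the reads there could belong to either.

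Ntf3 (ENSMUSG00000049107, chromosome 6, 126101412 to 126166910, minus strand), the ligand of TrkC, was barely read. It had 0, 13 and 40 reads in the Il17rb-Cre libraries, 7, 11 and 229 in the Il17ra-Cre libraries and 4, 33, 0 and 8 in the Il17rc-Cre libraries. As CPM this was 0, 0.174 and 0.572 in Il17rb-Cre, 0.189, 0.292 and 1.34 in Il17ra-Cre and 0.0823, 0.457, 0 and 0.113 in Il17rc-Cre. The groups overlapped, and 1 library, Il17ra-Cre replicate 3, held most of the Ntf3 reads of the series. A count of 0 allows up to 0.0545 raw CPM in Il17rb-Cre replicate 1 and 0.0423 raw CPM in Il17rc-Cre replicate 3, from counting error alone. None of the 3 comparisons passed by edgeR. The log2 fold change was -1.30 ± 1.56 in Il17rb-Cre against Il17ra-Cre (edgeR adjusted p = 0.542), 0.60 ± 1.45 in Il17rb-Cre against Il17rc-Cre (0.771) and 1.90 ± 1.45 in Il17ra-Cre against Il17rc-Cre (0.552). The first was 0.058 without Il17ra-Cre replicate 3, and the second was -0.91 without Il17rb-Cre replicate 3.

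Ntrk2 (ENSMUSG00000055254, chromosome 13, 58806569 to 59133970, plus strand), the gene of TrkB, differed in all 3 comparisons. It was at 95.6, 112 and 89.5 CPM in Il17rb-Cre, at 332, 285 and 331 CPM in Il17ra-Cre and at 563, 526, 644 and 483 CPM in Il17rc-Cre. The 3 groups formed 3 separate bands with no overlap, a separation that 14.6% of all genes show between Il17ra-Cre and Il17rc-Cre. In Il17rb-Cre it was lower than in Il17ra-Cre by 3.19-fold (log2 -1.67 ± 0.16, edgeR adjusted p = 5.24e-05) and lower than in Il17rc-Cre by 5.59-fold (log2 -2.48 ± 0.16, edgeR adjusted p = 3.90e-06). Both passed with each of the 10 libraries left out. In Il17ra-Cre it was 1.75-fold lower than in Il17rc-Cre (log2 -0.81 ± 0.15, edgeR adjusted p = 0.0384). That smaller difference passed without Il17ra-Cre replicate 3 or Il17rc-Cre replicate 2, but not without Il17ra-Cre replicate 1 or 2, any Il17rb-Cre replicate, or replicate 1, 3 or 4 of Il17rc-Cre, where it was between -0.92 and -0.73 (edgeR adjusted p between 0.0620 and 0.136). GENCODE M21 gives the gene 10 transcripts, 7 of them coding, and counts per gene do not separate the full-length kinase from truncated TrkB.

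Markers of astrocytes, a main site of truncated TrkB, summed to between 318 and 355 CPM in Il17rb-Cre, to 10830, 9842 and 6273 CPM in Il17ra-Cre replicates 1 to 3 and to between 9835 and 11581 CPM in Il17rc-Cre. All 8 astrocyte markers were lower in Il17rb-Cre than in either other group, with a median log2 fold change of -4.03 against Il17ra-Cre and -5.23 against Il17rc-Cre. Gfap, the intermediate filament of astrocytes, was the highest of them in each group, at a mean of 161 CPM in Il17rb-Cre, 6790 CPM in Il17ra-Cre and 6599 CPM in Il17rc-Cre. No astrocyte marker was at 0 in all libraries of a group. Between Il17ra-Cre and Il17rc-Cre, 1 of the 8, Fgfr3, was lower in Il17ra-Cre by edgeR, and the median log2 fold change was -0.75, beside -0.81 for Ntrk2. The other 7 did not pass, but 7 of the 8 markers, all except Gfap, had every Il17ra-Cre library below every Il17rc-Cre library, as with Aldh1l1 at a mean of 311 CPM in Il17ra-Cre and 595 CPM in Il17rc-Cre. Over all genes tested, 14.6% had no overlap between these 2 groups, in either direction. Gfap makes up most of the summed level in both groups. The part of these markers in the Ntrk2 result was not tested.

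**Figure D2:**
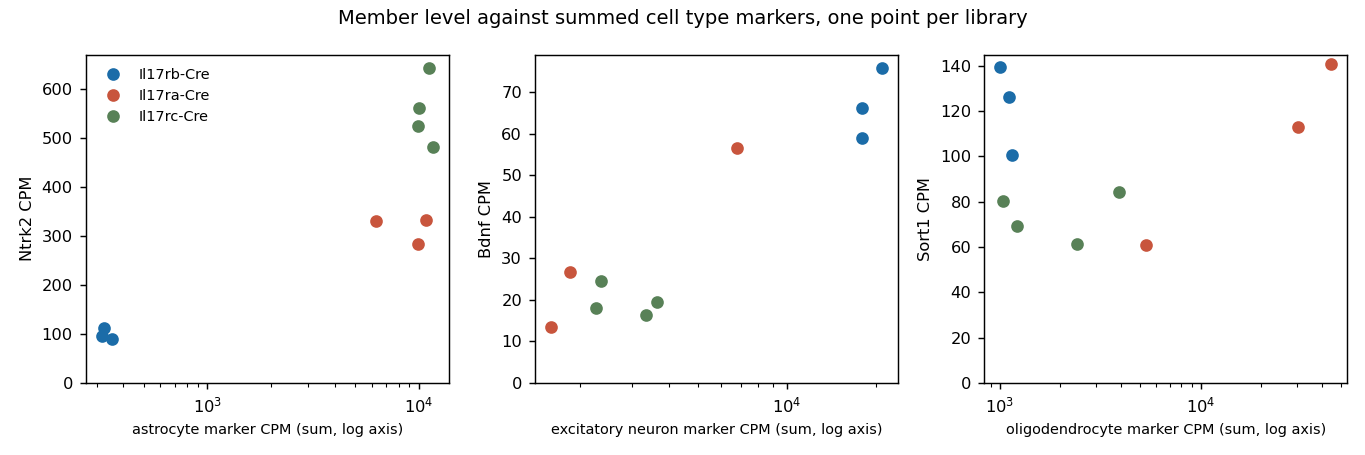
CPM of Ntrk2, Bdnf and Sort1 (linear axes from 0) against the summed CPM of 8 markers of astrocytes, excitatory neurons and oligodendrocytes (log axes), 1 point per library. Il17rb-Cre libraries sit at 318 to 355 CPM of astrocyte markers and below 113 CPM of Ntrk2, and Il17ra-Cre replicate 3 sits apart from the other 2 of its group in the excitatory neuron and oligodendrocyte panels.

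Ntrk3 (ENSMUSG00000059146, chromosome 7, 78175959 to 78738012, minus strand), the gene of TrkC, ran the other way with a smaller difference. It was at 24.9, 23.1 and 24.8 CPM in Il17rb-Cre, at 14.9, 18.7 and 15.4 CPM in Il17ra-Cre and at 17.6, 17.5, 16.1 and 13.5 CPM in Il17rc-Cre. The Il17rb-Cre libraries lay together above all others, and the other 2 groups covered the same range. A lack of overlap with Il17rb-Cre is shared by 53.8% of all genes against Il17ra-Cre and by 53% against Il17rc-Cre. The level in Il17rb-Cre was 1.49-fold higher than in Il17ra-Cre (log2 0.57 ± 0.17, edgeR adjusted p = 0.0234) and also higher than in Il17rc-Cre (log2 0.59 ± 0.16, edgeR adjusted p = 0.0155). The first did not pass without Il17ra-Cre replicate 1 or without Il17rb-Cre replicate 1, 2 or 3, at 0.52, 0.56, 0.61 and 0.55 (edgeR adjusted p between 0.0524 and 0.0739). The second did not pass without Il17rb-Cre replicate 1, 2 or 3, at 0.52, 0.56 and 0.51 (edgeR adjusted p between 0.0596 and 0.0851). Between Il17ra-Cre and Il17rc-Cre the log2 fold change was 0.013 ± 0.16 (edgeR adjusted p = 0.982).

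Ngfr (ENSMUSG00000000120, chromosome 11, 95568818 to 95587735, minus strand), the gene of p75, is known in the adult forebrain mainly from neurons outside the cortex and was rare in all libraries. It had 3, 4 and 0 reads in the Il17rb-Cre libraries, 17, 49 and 160 in the Il17ra-Cre libraries and 31, 66, 67 and 4 in the Il17rc-Cre libraries. As CPM this was 0.0563, 0.0534 and 0 in Il17rb-Cre, 0.458, 1.30 and 0.937 in Il17ra-Cre and 0.638, 0.913, 0.894 and 0.0566 in Il17rc-Cre. Il17rc-Cre replicate 4 lay next to the Il17rb-Cre libraries, and the other libraries of both groups lay well above them. Summed over a group, raw CPM with exact Poisson 95% intervals were 0.0340 (0.0137 to 0.0701) in Il17rb-Cre, 0.911 (0.796 to 1.04) in Il17ra-Cre and 0.673 (0.575 to 0.783) in Il17rc-Cre, intervals that cover counting error only. The 0 in Il17rb-Cre replicate 3 allows up to 0.0417 raw CPM. The log2 fold change was -4.57 ± 1.21 against Il17ra-Cre (edgeR adjusted p = 0.0129) and -4.05 ± 1.17 against Il17rc-Cre (edgeR adjusted p = 0.0194), and both passed with each library left out in turn. The first did not pass with replicate 3 as the only Il17ra-Cre library (-4.63, edgeR adjusted p = 0.0602), nor the second with a replicate block by library numbers (-3.70, edgeR adjusted p = 0.0539). The size rests on 7 reads in Il17rb-Cre and is imprecise. In Il17ra-Cre against Il17rc-Cre the log2 fold change was 0.52 ± 0.94 (edgeR adjusted p = 0.839). Markers of mural and fibroblast-like cells summed to between 2.52 and 7.39 CPM in Il17rb-Cre, between 72.3 and 79.3 CPM in Il17ra-Cre and between 214 and 466 CPM in Il17rc-Cre, and their part in the Ngfr result was not tested.

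Sort1 (ENSMUSG00000068747, chromosome 3, 108284082 to 108361511, plus strand), the gene of sortilin, was high in every group. It was at 101, 140 and 126 CPM in Il17rb-Cre, at 141, 113 and 61.0 CPM in Il17ra-Cre and at 69.5, 84.3, 80.1 and 61.2 CPM in Il17rc-Cre. Every Il17rb-Cre library lay above every Il17rc-Cre library, and the Il17ra-Cre libraries spread over the range of both. Of all genes, 53% likewise had no overlap between Il17rb-Cre and Il17rc-Cre, in either direction. The level in Il17rb-Cre was 1.66-fold higher than in Il17rc-Cre (log2 0.73 ± 0.26, edgeR adjusted p = 0.0455). It did not pass without Il17ra-Cre replicate 2, any Il17rb-Cre replicate or any Il17rc-Cre replicate, where it was between 0.57 and 0.80 (edgeR adjusted p between 0.0569 and 0.200). Against Il17ra-Cre the log2 fold change in Il17rb-Cre was 0.22 ± 0.28 (edgeR adjusted p = 0.561), or -0.053 when Il17ra-Cre replicate 3 was left out. Between Il17ra-Cre and Il17rc-Cre it was 0.51 ± 0.26 (edgeR adjusted p = 0.333), or 0.78 when the same library was left out, which passed (edgeR adjusted p = 0.0237). Il17ra-Cre replicate 3 had the lowest Sort1 level of its group and the lowest summed oligodendrocyte markers, 5314 CPM against 44453 and 30383 CPM in replicates 1 and 2. Those markers summed to between 1005 and 1150 CPM in Il17rb-Cre, where Sort1 was high, and to between 1032 and 3928 CPM in Il17rc-Cre. Their part in the Sort1 result was not tested. The gene shares 4.47% of its exonic length with Gm12523.

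**Figure D3:**
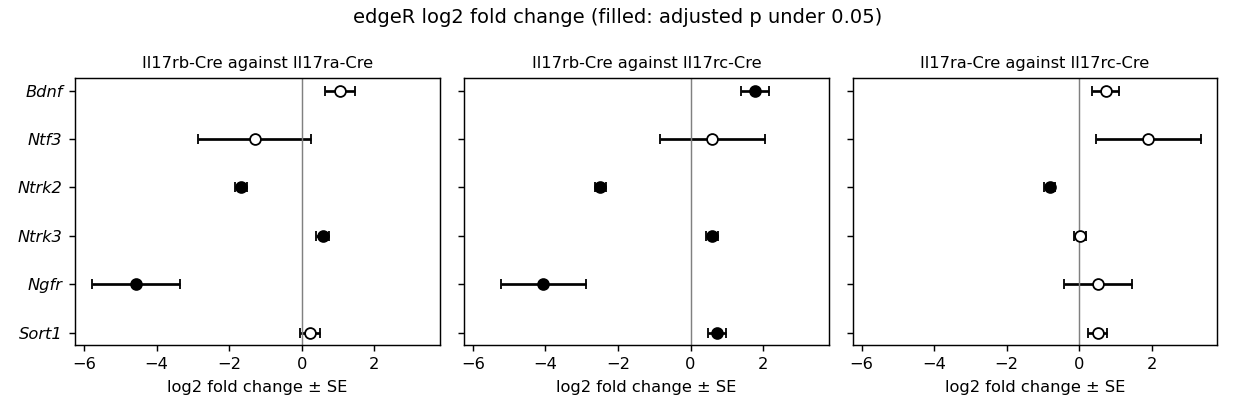
edgeR log2 fold change ± SE (x axis) of each gene in the 3 comparisons, filled where the adjusted p was under 0.05. Ntrk2 lies left of 0 in all 3 panels, at -1.67, -2.48 and -0.81, and the wide bars of Ntf3 and Ngfr belong to the genes with few reads.

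The count of called genes depended on single libraries. For Il17rb-Cre against Il17rc-Cre it was 3 without Il17rb-Cre replicate 1, 2 or 3, in place of 5. For Il17ra-Cre against Il17rc-Cre it was 2 without Il17ra-Cre replicate 3, where Sort1 joined Ntrk2. It was 0 in edgeR without Il17ra-Cre replicate 1 or 2, any Il17rb-Cre replicate, or replicate 1, 3 or 4 of Il17rc-Cre, with 1 or 2 of the 6 at an unadjusted p under 0.05 and 1 called by DESeq2 on all libraries. The comparisons share libraries, so their values are not independent of each other.

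The make-up of the receptor system inside a library was read from ratios of CPM per kb, which do not depend on the library's total. Per kb of exon, TrkB mRNA outweighed TrkC mRNA in each library, by 5.99, 7.60 and 5.65 to 1 in Il17rb-Cre, by 35.0, 23.8 and 33.7 to 1 in Il17ra-Cre and by between 47.1 and 62.5 to 1 in the 4 Il17rc-Cre libraries. The groups did not overlap, with geometric means of 6.36, 30.4 and 53.5 for Il17rb-Cre, Il17ra-Cre and Il17rc-Cre. These sizes depend on the lengths used, 19.292 kb for Ntrk2 and 30.17 kb for Ntrk3. In CPM not divided by length, the Il17rb-Cre means were 99.1 for Ntrk2 and 24.3 for Ntrk3. An exact permutation test over the 4200 assignments of 10 libraries to the groups gave p = 0.000476, the smallest it can give (0.00143 adjusted over 3 ratios). Of all single genes, 53.8% had no overlap between Il17rb-Cre and Il17ra-Cre, 53% between Il17rb-Cre and Il17rc-Cre and 14.6% between Il17ra-Cre and Il17rc-Cre. How often ratios of other gene pairs reach this p was not tested, so it adds no support beyond the calls of Ntrk2 and Ntrk3. The group differences in log2 were -2.26 for Il17rb-Cre minus Il17ra-Cre, -3.07 for Il17rb-Cre minus Il17rc-Cre and -0.82 for Il17ra-Cre minus Il17rc-Cre, with a pooled SD of 0.236 within groups.

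Per kb of exon, ligand against receptor turned over between the groups. With 0.1 CPM added to both, the ratio of Bdnf to Ntrk2 was 2.47, 1.63 and 2.30 in Il17rb-Cre, 0.127, 0.292 and 0.532 in Il17ra-Cre and 0.0906, 0.107, 0.0940 and 0.159 in Il17rc-Cre. Bdnf thus exceeded Ntrk2 per kb of exon in all 3 Il17rb-Cre libraries and in none of the other 7, while Il17ra-Cre replicate 1 lay within the Il17rc-Cre range. Which gene comes out higher depends on the lengths used, 6.217 kb for Bdnf and 19.292 kb for Ntrk2. In CPM not divided by length, Il17rb-Cre libraries held 58.9 to 76.0 of Bdnf and 89.5 to 112 of Ntrk2. Another fixed length, used for all libraries, would shift them by the same factor and leave the group differences unchanged. That does not cover groups that use transcripts of different length. Coding transcripts of Ntrk2 run from 2284 to 8744 bases, and counts per gene do not show which were used. The group differences could depend on this, here and in the ratio of Ntrk2 to Ntrk3, which was not tested. The exact permutation p was 0.000952 (0.00143 adjusted over 3 ratios), and the log2 differences were 2.96 for Il17rb-Cre minus Il17ra-Cre, 4.26 for Il17rb-Cre minus Il17rc-Cre and 1.30 for Il17ra-Cre minus Il17rc-Cre. Here too, ratios of other gene pairs were not tested, so the p adds no support beyond the results of Bdnf and Ntrk2. The ratio of Ngfr to Ntrk2, with the same addition, had geometric means of 0.00759, 0.0165 and 0.00594 for Il17rb-Cre, Il17ra-Cre and Il17rc-Cre (exact permutation p = 0.124, also 0.124 adjusted over 3 ratios). In Il17rb-Cre that ratio consists mostly of the added 0.1 CPM.

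**Figure D4:**
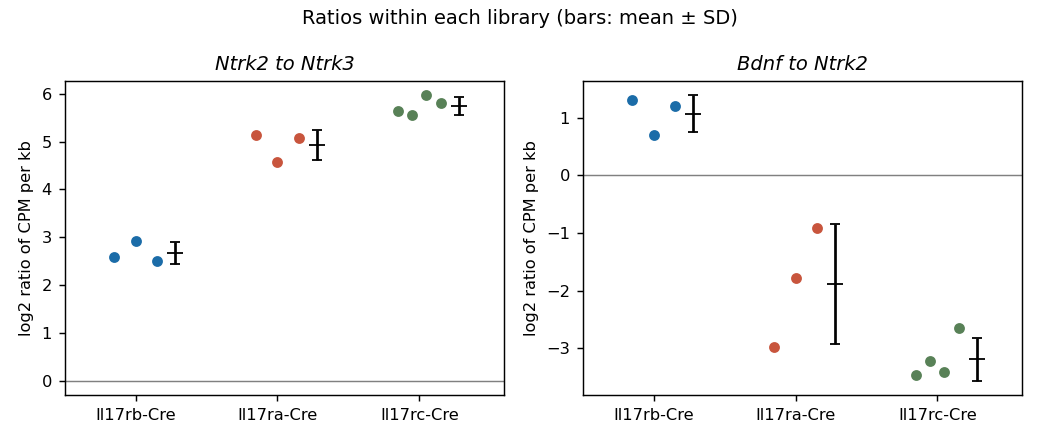
log2 ratio of CPM per kb of Ntrk2 to Ntrk3 and of Bdnf to Ntrk2 (y axes), with 1 point per library and a bar for the mean ± SD. The 3 Il17rb-Cre libraries are lowest in the first panel and the only ones above 0 in the second, where the place of 0 depends on the exon lengths used.

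Over the 10 libraries, the genes whose log2(CPM + 1) followed each member most closely were found among 10121 or 10122 named genes of higher expression, as a description in which the differences between the groups weigh most. Ntrk2 was followed by Fgfr3 (Pearson r = 0.99), Slco1c1 (0.99) and Fbxo8 (0.99), and the first 2 are also on the marker lists for astrocytes and for endothelium. Fgfr3 was at 6.40 ± 1.68 CPM in Il17rb-Cre, 88.7 ± 15.4 CPM in Il17ra-Cre and 336 ± 65.9 CPM in Il17rc-Cre, the same order of groups as Ntrk2. Bdnf was followed by the calcium channel subunit gene Cacna2d1 (0.98), Blnk (0.98) and Ppm1e (0.97), and Cacna2d1 was at 23.6 ± 0.649, 14.4 ± 6.83 and 10.6 ± 2.12 CPM in Il17rb-Cre, Il17ra-Cre and Il17rc-Cre. Ntrk3 was followed by Cadps (0.98), Slc25a27 (0.97) and Pnck (0.97), and Sort1 by Sdf4 (0.97), Fbxo21 (0.97) and Smarcc2 (0.95). The nearest genes to the low-count members had lower r, with Igf1r (0.91), Prph (0.89) and Washc1 (0.83) for Ntf3 and Rad51d (0.93), Tmem134 (0.93) and Zfp775 (0.88) for Ngfr. Each is among the highest of 10122 genes over only 10 libraries, and how high r would run without any relation was not tested. Prph averaged 24.9 ± 41.4 CPM in Il17ra-Cre, where, as for Ntf3, the SD exceeded the mean.

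Other genes of the pathway were described from 6 lists, by counts and by the median log2 fold change of the genes tested. Over all 20301 genes that median was -0.092 in Il17rb-Cre against Il17ra-Cre, 0.023 in Il17rb-Cre against Il17rc-Cre and 0.032 in Il17ra-Cre against Il17rc-Cre. Over all genes, 16.4% were called higher and 24.4% lower in Il17rb-Cre against Il17ra-Cre. Against Il17rc-Cre, 17.7% were called higher and 21.9% lower in Il17rb-Cre. These shares are the background for each count below, and no list was tested as a set. The marker sums given above differed between the same groups, and their part in these counts was not tested. Upper quartile scaling moved the median of all genes to 0.041 in the first comparison and to 0.127 in the second, and changed the sign of no gene named below.

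Of 7 other ligands, receptors and sortilin relatives, 0 were higher and 1 lower in Il17rb-Cre than in Il17ra-Cre by edgeR (median 0.069), with 1 higher at an unadjusted p under 0.05, 1 higher by DESeq2 and 1 higher by edgeR without Il17ra-Cre replicate 3 or Il17rc-Cre replicate 2. Against Il17rc-Cre 2 were higher and 1 lower in Il17rb-Cre (median 0.34). Sorcs2, a sortilin relative that also binds proneurotrophins, ran with Ntrk2, at 6.05 ± 1.13 CPM in Il17rb-Cre, 14.2 ± 1.16 CPM in Il17ra-Cre and 32.7 ± 3.54 CPM in Il17rc-Cre. Its log2 fold changes were -1.23 ± 0.19 in Il17rb-Cre against Il17ra-Cre (edgeR adjusted p = 7.63e-04), -2.43 ± 0.19 in Il17rb-Cre against Il17rc-Cre (1.15e-05) and -1.20 ± 0.18 in Il17ra-Cre against Il17rc-Cre (0.0284). The last of these did not pass without Il17ra-Cre replicates 1 or 2, Il17rb-Cre replicate 2, or replicates 1, 3 or 4 of Il17rc-Cre, each left out alone, where it lay between -1.32 and -1.13. Sorcs2 did not overlap between any pair of groups. In the same order of comparisons, 53.8%, 53% and 14.6% of all genes had no overlap. Its relatives Sorcs3 and Sorcs1 were higher in Il17rb-Cre than in Il17rc-Cre, by 1.23 ± 0.29 and 1.22 ± 0.38 in log2 (edgeR adjusted p = 0.00748 and 0.0288). Sorcs1 lost its call in turn without replicates 2 and 3 of Il17rb-Cre and 1 and 3 of Il17rc-Cre, at 0.94, 1.09, 1.13 and 1.01. The ligand gene Ntf5 averaged at most 0.143 CPM in a group and did not pass.

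Of 15 listed genes that cut, sort and release neurotrophins, 13 could be tested, Mmp7 and Plg being too low. In Il17rb-Cre, against Il17ra-Cre, 4 were higher and 4 lower (median 0.13), and 4 were higher and 5 lower than in Il17rc-Cre (median 0.55). The second split was 4 and 3 without Il17rb-Cre replicate 1, 3 and 3 without Il17rb-Cre replicate 3 and 6 and 3 without Il17rc-Cre replicate 2. Those higher included Cadps2, which primes dense-core vesicles for release, at 158 CPM in Il17rb-Cre against 48.8 CPM in Il17ra-Cre and 37.4 CPM in Il17rc-Cre (log2 1.70 ± 0.17 and 2.08 ± 0.16, edgeR adjusted p = 6.61e-05 and 9.15e-06). The prohormone convertase gene Pcsk2 was at 230 CPM in Il17rb-Cre against 75.3 and 73.7 CPM in Il17ra-Cre and Il17rc-Cre (1.61 ± 0.29 and 1.64 ± 0.26, edgeR adjusted p = 0.00160 and 8.06e-04). Serpini1, the inhibitor neuroserpin, was higher in Il17rb-Cre than in Il17ra-Cre by 1.51 ± 0.28 (edgeR adjusted p = 0.00210), and the convertase gene Pcsk1 was higher than in Il17rc-Cre by 1.59 ± 0.38 (edgeR adjusted p = 0.00779). Those lower included Plat, the protease that activates plasminogen, at 19.9 CPM in Il17rb-Cre against 165 and 286 CPM in Il17ra-Cre and Il17rc-Cre (-3.05 ± 0.65 and -3.85 ± 0.66, edgeR adjusted p = 0.00422 and 0.00126). The Il17rc-Cre mean of Plat rests on libraries from 86.8 to 602 CPM, and its fold change was -3.19 without the highest, replicate 2, and -2.74 by limma voom, both past the threshold. The convertase gene Pcsk6 was at 1.30 CPM in Il17rb-Cre against 8.06 and 17.4 CPM (-2.63 ± 0.37 and -3.74 ± 0.37, edgeR adjusted p = 4.22e-04 and 5.03e-05). Cpe, a carboxypeptidase that also sorts proBDNF, was at 945 CPM in Il17rb-Cre against 1899 and 4084 CPM (-1.01 ± 0.18 and -2.11 ± 0.18, edgeR adjusted p = 0.00187 and 2.06e-05). Cpe was also lower in Il17ra-Cre than in Il17rc-Cre (-1.10 ± 0.18, edgeR adjusted p = 0.0313).

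Of 30 signalling genes downstream of Trk receptors, 8 were higher and 7 lower in Il17rb-Cre than in Il17ra-Cre (median -0.016), and 9 were higher and 6 lower than in Il17rc-Cre (median -0.013). Their medians differed little from that of all genes. Among them the kinase gene Map2k1 was higher in Il17rb-Cre (log2 0.69 ± 0.12 and 0.70 ± 0.11 against Il17ra-Cre and Il17rc-Cre, edgeR adjusted p = 0.00145 and 7.99e-04). The adaptors differed by paralog. Shc2 was higher in Il17rb-Cre than in Il17ra-Cre, at 57.6 against 13.6 CPM (2.07 ± 0.34, edgeR adjusted p = 9.74e-04), while Shc1 was lower, against both Il17ra-Cre and Il17rc-Cre (-3.24 ± 0.27 and -3.84 ± 0.27, edgeR adjusted p = 2.24e-05 and 6.35e-06). The GTPase gene Nras was lower in Il17rb-Cre in both comparisons (-1.81 ± 0.21 and -1.46 ± 0.20, edgeR adjusted p = 1.65e-04 and 3.71e-04). Crkl was lower than in Il17ra-Cre (-1.47 ± 0.20, edgeR adjusted p = 3.52e-04) and Mapk7 lower than in Il17rc-Cre (-0.95 ± 0.20, edgeR adjusted p = 0.00362), where Pik3r1 was higher (0.80 ± 0.14, edgeR adjusted p = 0.00143).

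Of 12 partners and effectors of p75, 4 were higher and 7 lower in Il17rb-Cre than in Il17ra-Cre (median -0.66), and 4 were higher and 5 lower than in Il17rc-Cre (median -0.29). Lingo1 and Rtn4r, which form the Nogo receptor complex with p75, were higher in Il17rb-Cre, Lingo1 at 428 CPM against 106 and 112 CPM in Il17ra-Cre and Il17rc-Cre (log2 2.01 ± 0.32 and 1.93 ± 0.29, edgeR adjusted p = 9.52e-04 and 6.30e-04) and Rtn4r at 123 CPM against 21.3 and 26.8 CPM (2.52 ± 0.45 and 2.20 ± 0.40, edgeR adjusted p = 0.00166 and 0.00187). Against Il17ra-Cre, Rtn4r was 3.14 without Il17ra-Cre replicate 3 and 1.79 with it as the only library of its group, both past the threshold. Tnfrsf19, which can take the place of p75 in that complex, was lower, at 16.9 CPM in Il17rb-Cre against 118 and 215 CPM (-2.80 ± 0.23 and -3.67 ± 0.23, edgeR adjusted p = 2.00e-05 and 3.50e-06). Maged1, an adaptor that binds p75, was higher in Il17rb-Cre in both comparisons (1.04 ± 0.15 and 0.90 ± 0.13, edgeR adjusted p = 4.30e-04 and 5.79e-04), and the GTPase gene Rhoa was lower in both (-1.59 ± 0.18 and -1.24 ± 0.17, edgeR adjusted p = 1.25e-04 and 3.33e-04). The p75-binding zinc finger gene Zfp110 was lower than in Il17ra-Cre (-1.84 ± 0.24, edgeR adjusted p = 2.95e-04) and the kinase gene Ripk2 lower than in Il17rc-Cre (-2.14 ± 0.34, edgeR adjusted p = 7.94e-04).

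Of 16 factors that control Bdnf transcription, 5 were higher and 3 lower in Il17rb-Cre than in Il17ra-Cre (median 0.34), and 6 were higher and 3 lower than in Il17rc-Cre (median 0.61). Mef2c, an activator regulated by calcium, was at 785 CPM in Il17rb-Cre against 219 and 244 CPM in Il17ra-Cre and Il17rc-Cre (log2 1.84 ± 0.20 and 1.69 ± 0.18, edgeR adjusted p = 1.06e-04 and 8.20e-05). Mef2d (1.58 ± 0.23 and 1.28 ± 0.21, edgeR adjusted p = 5.75e-04 and 0.00106) and the CREB coactivator gene Crtc1 (1.46 ± 0.21 and 1.41 ± 0.19, edgeR adjusted p = 4.85e-04 and 3.20e-04) were also higher in both. Rest, a repressor of neuronal genes that include Bdnf, was lower, at 0.829 CPM in Il17rb-Cre against 20.2 and 13.9 CPM (-4.60 ± 0.46 and -4.07 ± 0.44, edgeR adjusted p = 6.20e-05 and 7.97e-05). Crtc3 (-1.69 ± 0.34 and -2.30 ± 0.33, edgeR adjusted p = 0.00306 and 4.80e-04) and Crtc2 (-0.71 ± 0.23 and -0.68 ± 0.22, edgeR adjusted p = 0.0328 and 0.0321) were lower in both. Crtc2 did not pass against Il17ra-Cre without replicate 1 or 2 of that group or Il17rb-Cre replicate 1 or 3, between -0.74 and -0.55, nor against Il17rc-Cre without Il17rb-Cre replicates 1 or 3 or replicates 1 to 3 of Il17rc-Cre, each left out alone, between -0.76 and -0.59. With Il17ra-Cre replicate 3 as the only library of its group, Crtc2 was at -0.14 and Crtc3 at -1.16 against Il17ra-Cre, and neither passed (edgeR adjusted p = 0.773 and 0.102).

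Of 16 genes known to be induced by Bdnf in neurons, 6 were higher and 0 lower in Il17rb-Cre than in Il17ra-Cre by edgeR (median 0.71; 0 lower also at an unadjusted p under 0.05, by DESeq2 and by limma voom), and 7 were higher and 2 lower than in Il17rc-Cre (median 1.07). Without Il17ra-Cre replicate 3 the first count was 11 and 0, and with that library as the only one of its group it was 3 and 0. The second count was 5 and 1 without Il17rb-Cre replicate 1 and 4 and 1 without Il17rb-Cre replicate 2. Homer1, a scaffold of excitatory synapses, was at 237 CPM in Il17rb-Cre against 63.6 and 87.4 CPM in Il17ra-Cre and Il17rc-Cre (log2 1.89 ± 0.22 and 1.44 ± 0.20, edgeR adjusted p = 1.52e-04 and 3.74e-04), and the transcription factor gene Egr3 was at 181 CPM against 41.3 and 56.9 CPM (2.13 ± 0.25 and 1.67 ± 0.23, edgeR adjusted p = 1.59e-04 and 3.14e-04). Npy, neuropeptide Y, was higher than in Il17ra-Cre, at 371 against 73.9 CPM (2.33 ± 0.34, edgeR adjusted p = 5.11e-04). Arc, an immediate early gene of synapses, was higher than in Il17rc-Cre, at 1476 against 220 CPM (2.74 ± 0.41, edgeR adjusted p = 5.50e-04). Both genes lower than in Il17rc-Cre were Spry4, a feedback inhibitor of receptor tyrosine kinases (-1.29 ± 0.24, edgeR adjusted p = 0.00210), and Tac1, the substance P precursor (-2.97 ± 0.83, edgeR adjusted p = 0.0174), which did not pass without Il17rb-Cre replicate 1 or 2, at -2.98 and -2.83, and was -2.11 without Il17rc-Cre replicate 3.

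Between Il17ra-Cre and Il17rc-Cre 5 genes of these lists passed. They were Sorcs2 and Cpe, both given above, the Trk signalling genes Pik3r1 and Ptpn11, higher in Il17ra-Cre by 0.67 ± 0.14 and 0.90 ± 0.19 in log2 (edgeR adjusted p = 0.0451 for each), and Bhlhe40, a repressor of Bdnf, lower (log2 fold change -0.97 ± 0.19, edgeR adjusted p = 0.0390). The medians of the 6 lists, in the order given above, were 0.25, -0.37, -0.0028, 0.18, 0.17 and -0.44. The lists of p75 partners and of genes induced by Bdnf had 0 calls in edgeR, with 2 and 1 higher and 1 and 5 lower at an unadjusted p under 0.05, and 0 and 1 higher and 1 and 4 lower by DESeq2. Without Il17ra-Cre replicate 3, 5 Trk signalling genes were higher and 2 lower, 2 partners of p75 were higher and 2 lower, and 7 genes induced by Bdnf were lower in Il17ra-Cre. Each of these 5 calls was lost with several single libraries left out. Pik3r1 and Ptpn11 passed without Il17ra-Cre replicate 3, at 0.75 and 1.04, but not without any of the other 9 libraries, at 0.49 to 0.70 and 0.68 to 0.95. Bhlhe40 was lost, at -1.04 to -0.89, without any library but Il17ra-Cre replicate 3 and Il17rc-Cre replicate 2, and Cpe, at -1.25 to -0.99, without any but those 2 and Il17rc-Cre replicate 4.

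**Figure D5:**
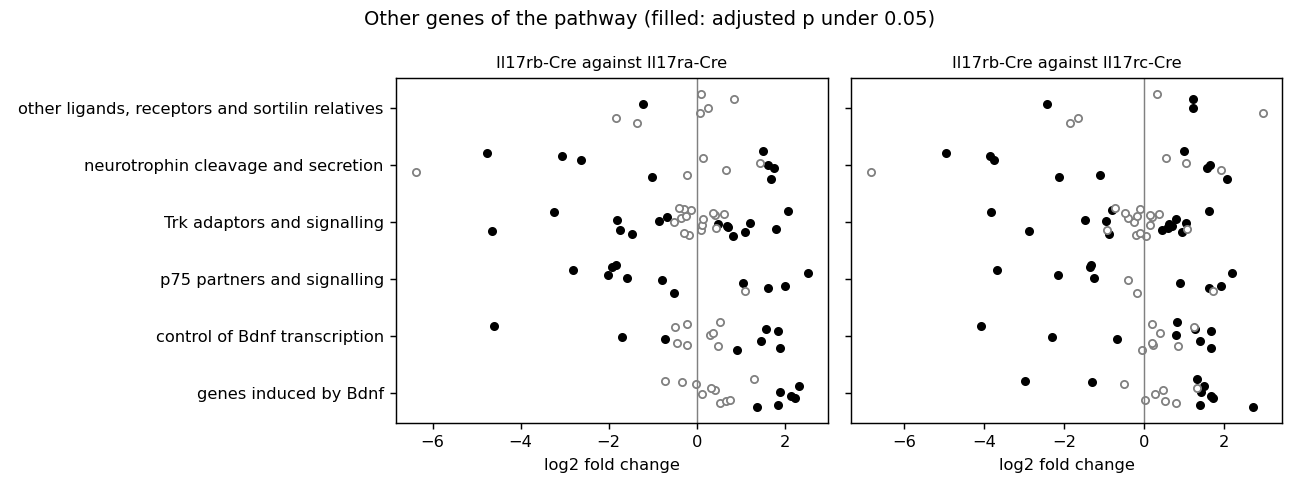
edgeR log2 fold change (x axis) of each tested gene of the 6 lists (rows) for Il17rb-Cre against Il17ra-Cre and Il17rb-Cre against Il17rc-Cre, filled where the adjusted p was under 0.05. In the middle 4 rows filled points lie on both sides of 0 in both panels, and in the last row the 6 filled points of the first panel all lie right of 0.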

How the data were processed

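Ribosome-bound RNA of 10 mouse cortical libraries was analysed. The deposited table holds raw counts per gene, which the authors made from reads aligned with STAR 2.7.5c to GRCm38, per the submitters' processing notes, from cDNA amplified with the SMART-Seq v4 kit, per the labels' protocols. How reads were assigned to genes, and with which strand setting, is not given in the sources used here. Amplification without molecular identifiers means that reads are not independent molecules.

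Symbols, lengths and coordinates came from GENCODE M21 (GRCm38), matched for all 55536 identifiers. Genes passing edgeR's filter by group (20301, with 35235 removed) were scaled by TMM and tested with the quasi-likelihood F test of edgeR 4.0.16 in R 4.3.3, all 10 libraries in 1 model, with Benjamini-Hochberg adjustment over all genes tested and a threshold of 0.05. Dispersion was 0.239 in common, or 0.489 as a coefficient of variation. Errors beside CPM are SD, those beside log2 fold changes SE. Replicates of a group differed by more than sampling noise. Within-library ratios used an exact permutation test, two-sided by its F statistic. The edgeR fit and the permutation test were run on simulated data. In the simulated counts only a small share of genes changed, evenly up and down. They therefore do not show how the fit behaves where a large share of genes was called, as in both comparisons with Il17rb-Cre. Named genes were the 6 members, up to 3 genes per direction with the smallest p among those past the threshold in each pathway list and comparison, the 3 genes most correlated with each member, the highest marker of a cell type list and the label checks, while Ntf5 was named after its values were seen. Some genes that the rule covers are not reported here. The members, lists and rules were chosen with earlier results of these data known. Alternatives were DESeq2 1.42.0, voom in limma 3.58.1 with quality weights, DESeq2 size factors, upper quartile scaling, no filter, 2-group fits, replicate blocks, another pseudocount and each library left out. The fit without Il17ra-Cre replicates 1 and 2 was added after the data were seen and leaves 1 library in that group, which is assumed to vary like the others.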

Additional observations from a re-analysis of the deposited data

How the results depend on the processing

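The calls of Ntrk2 in both comparisons with Il17rb-Cre and of Bdnf for Il17rb-Cre against Il17rc-Cre held under each alternative run, while those of Ngfr and Ntrk3 in both, of Sort1 for Il17rb-Cre against Il17rc-Cre and of Ntrk2 between Il17ra-Cre and Il17rc-Cre did not. The causes were not tested. For Il17rb-Cre against Il17ra-Cre, Bdnf passed by DESeq2 (1.07, adjusted p = 0.0248) and by limma voom (1.43, adjusted p = 5.52e-04). Without a filter Ntrk3 was 0.57 and did not pass (edgeR adjusted p = 0.0526). With only replicate 3 left in Il17ra-Cre, Bdnf was 0.25, Ntrk3 0.67 and Ngfr -4.63, none past the threshold, Sort1 was 1.02 and passed (edgeR adjusted p = 0.0306), and 4192 genes passed in place of 8268. For Il17rb-Cre against Il17rc-Cre, Sort1 missed the threshold with DESeq2 size factors (0.65), by DESeq2 (0.65) and without a filter (0.67), where Ntrk3 was 0.52 and 3 of the 6 genes passed in place of 5. For Il17ra-Cre against Il17rc-Cre, 443 genes passed, against 2101 by DESeq2, 4579 by limma voom, 1 in a fit of the 2 groups alone and 0 in edgeR with only replicate 3 of Il17ra-Cre (3121 at an unadjusted p under 0.05). Ntrk2 was -0.86 in the fit of 2 groups and -0.82 with only replicate 3, neither past the threshold, which left 0 of the 6 genes called by edgeR in each (1 and 2 at an unadjusted p under 0.05), against 2 by limma voom, where Sort1 was 0.64 and passed. Sort1 was -0.35 with only replicate 3. Ntrk3, at 0.013, changed sign with DESeq2 size factors (-0.053), upper quartile scaling (-0.022), DESeq2 (-0.055), no filter (-0.055), 2 groups (-0.041) and only replicate 3 (-0.15). With a pseudocount of 0.5 CPM the ratio of Ngfr to Ntrk2 gave an exact permutation p of 0.00762. Ngfr was at most 0.0563 CPM in an Il17rb-Cre library, so the added 0.5 CPM makes up most of the Ngfr term there. The ratio in that group then follows mainly Ntrk2, and no conclusion on Ngfr is drawn from this p.

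Whether the replicate numbers pair the samples could not be settled, because only same-numbered libraries were compared, without differently numbered ones as a reference. Correlations of same-numbered deviations ran between -0.17 and 0.26, over 0.1 in 2 of 9 pairs by the titles' numbers and 1 of 9 by the library numbers. With a replicate block by the titles' numbers, Il17rb-Cre against Il17rc-Cre gave 3 called genes, with Ntf3 at -0.44, Ntrk3 at 0.51 and Sort1 at 0.65, and Il17ra-Cre against Il17rc-Cre gave 2 called of all genes and 0 of the 6 by edgeR (1 at an unadjusted p under 0.05, 1 by DESeq2 without a block), with Ntrk2 at -0.87 and Ntrk3 at -0.066. With a replicate block by the library numbers, Bdnf for Il17rb-Cre against Il17ra-Cre was 1.25 and passed (edgeR adjusted p = 0.0469) and Ntrk3 was 0.58 and did not. Against Il17rc-Cre 2 of the 6 were called, with Ntf3 at -0.70, Ntrk3 at 0.59, Ngfr at -3.70 and Sort1 at 0.79. Between Il17ra-Cre and Il17rc-Cre that block gave 1 called of all genes and 0 of the 6 by edgeR (1 at an unadjusted p under 0.05), with Ntrk2 at -0.72.

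Leaving out each library in turn gave these ranges of log2 fold change. For Il17rb-Cre against Il17ra-Cre they were 0.70 to 1.74 for Bdnf, -2.75 to 0.058 for Ntf3, -1.78 to -1.61 for Ntrk2, 0.52 to 0.67 for Ntrk3, -5.00 to -3.99 for Ngfr and -0.053 to 0.50 for Sort1, with 2 to 4 of the 6 and 6541 to 9916 of all genes called. For Il17rb-Cre against Il17rc-Cre they were 1.63 to 1.90 for Bdnf, -0.91 to 1.92 for Ntf3, -2.64 to -2.40 for Ntrk2, 0.51 to 0.63 for Ntrk3, -4.54 to -3.54 for Ngfr and 0.57 to 0.80 for Sort1, with 3 to 5 of the 6 and 5946 to 9151 of all genes called. For Il17ra-Cre against Il17rc-Cre they were 0.034 to 1.02 for Bdnf, 0.55 to 3.22 for Ntf3, -0.92 to -0.73 for Ntrk2, -0.15 to 0.055 for Ntrk3, 0.11 to 0.76 for Ngfr and 0.17 to 0.78 for Sort1, with 0 to 2 of the 6 and 0 to 2886 of all genes called by edgeR (2827 to 6163 at an unadjusted p under 0.05). Exact permutation p-values ran from 0.000794 to 0.00357 for Ntrk2 to Ntrk3, from 0.000794 to 0.00714 for Bdnf to Ntrk2 and from 0.0536 to 0.488 for Ngfr to Ntrk2. With only replicate 3 left in Il17ra-Cre, Pcsk2, Zfp110 and Npy, for Il17rb-Cre against Il17ra-Cre, kept their calls at 1.00, -1.25 and 1.70 in place of 1.61, -1.84 and 2.33. Depth limits Ntf3 and Ngfr, which had 0 to 229 and 0 to 160 reads in a library.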

Other observations

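The marker lists not yet described were counted in the same way, and none was tested as a set. Over all genes, 16.4% were called higher and 24.4% lower in Il17rb-Cre against Il17ra-Cre. Against Il17rc-Cre the shares were 17.7% higher and 21.9% lower in Il17rb-Cre, and 1.38% higher and 0.798% lower in Il17ra-Cre. Oligodendrocyte markers were all lower in Il17rb-Cre than in Il17ra-Cre (0 higher and 8 lower of 8, median log2 fold change -4.68) and all higher in Il17ra-Cre than in Il17rc-Cre (8 higher and 0 lower, median 3.81), while 1 of 8 was lower in Il17rb-Cre than in Il17rc-Cre. With replicate 3 as the only Il17ra-Cre library, the second count was 0 and 0 by edgeR (3 higher and 0 lower at an unadjusted p under 0.05) and the median 1.73. Pan-neuronal markers were higher in Il17rb-Cre, 6 of 8 against Il17ra-Cre (1 lower) and 6 of 8 against Il17rc-Cre, and inhibitory neuron markers in 5 and 2 of 8 (0 and 1 lower). Markers lower in Il17rb-Cre than in Il17ra-Cre and Il17rc-Cre were 8 and 5 of 8 for microglia and macrophages, 6 and 4 of 8 for oligodendrocyte precursors, 7 and 9 of 9 for mural and fibroblast-like cells and 3 and 6 of 8 for endothelium.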
